A study of Homo sapiens with 12 samples.

Results

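The genes described here are 39 genes of protein folding in the endoplasmic reticulum (ER) and of the unfolded protein response, out of 38611 genes in the deposited tables. They were chosen by gene name, as genes known for these functions, and with earlier results of these data known. The shares of members called below are therefore not independent of that choice. They comprise 8 luminal chaperones and cochaperones, 9 disulfide enzymes, 2 lectin chaperones, 6 genes of ER-associated degradation, 5 sensors and transcription factors, 6 genes of the translocon and signal peptidase, 2 genes of the COPII coat and WFS1, a calcium-handling protein of the ER membrane. Messenger RNA had been sequenced from DU145 and PC3, established human lines from prostate cancer metastases. Each line was present as the parental culture and as a subline selected with docetaxel, a taxane that stabilises microtubules. The labels give a docetaxel dose raised from 10 until the IC50 reached 1800 for DU145, and from 0.5 until it reached 15 for PC3, in a unit written as nm/ml that is left as given. The 4 groups had 3 libraries each, and no label says whether these were separate cultures. P-values here therefore compare groups only against the variation among 3 libraries, which may be of technical origin. No other agent and no genetic change is named in the labels for any group. The first resistant PC3 library stood apart from its 2 replicates, with a chi-square over counts of 33.8 and 33.9 per gene, where all other pairs within a group had 13.5 to 19.2.

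Secreted and membrane proteins enter the ER through the SEC61 translocon, lose their signal peptide, receive glycans and disulfide bonds and fold with the help of BiP (HSPA5), GRP94 (HSP90B1) and the lectins calnexin and calreticulin. When unfolded protein accumulates, the membrane sensors IRE1 (ERN1), PERK (EIF2AK3) and ATF6 are released from BiP and start the unfolded protein response, which raises chaperone, folding and degradation genes through spliced XBP1 and cleaved ATF6 and slows translation through PERK. Cleaved ATF6, together with the CCAAT-binding factor NF-Y, binds the ER stress response element (ERSE), and spliced XBP1 binds related elements. The counts per gene show transcript levels, and neither the splicing of XBP1 nor the cleavage of ATF6.

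In DU145 the folding machinery was lower in the resistant subline throughout nearly the whole list. By edgeR's quasi-likelihood test with Benjamini-Hochberg adjustment over 24128 genes, 34 of the 39 members fell, 4 rose and 1 did not pass an adjusted p of 0.05. Over all genes tested 20.7% fell and 18.9% rose in the same comparison, 39.6% in either direction. Another scaling, TPM (a share of transcripts, computed from the FPKM) tested with limma, moved that split of all called genes from 47.7% higher to 36.1% higher, and 34 members fell and 4 rose under it too. At least 2-fold lower were 16 members, against 5.80% of all genes tested. The median change of the members was -0.87 (log2), with 0.00 over all genes tested and -0.05 over the 10680 genes at least as abundant as the lowest member, of which 36.4% fell. The libraries of the parental and resistant groups did not overlap for 38 members, which held for 51.2% of all genes tested and 72.8% of those at least as abundant.

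In PC3 the same genes moved less and in both directions. There 18 members fell, 6 rose and 15 did not pass, with a median of -0.12 (0.00 over all genes and 0.07 over those at least as abundant as the lowest member). Without the first resistant PC3 library 16 fell and 6 rose. Under the TPM scaling the median was -0.039, and 14 fell and 7 rose: the falls of P4HB, CANX, DNAJC3 and SEC61A1 no longer passed and WFS1 passed as higher. Background shares in this comparison were 21.6% lower, 22.4% higher and 44.0% in either direction, and 31.5% lower and 39.6% higher among the genes at least as abundant as the lowest member. The PC3 groups did not overlap for 26 members, against 54.4% of all genes and 76.7% of those at least as abundant. The test of the difference between the changes of the lines (PC3 change minus DU145 change) called 27 members higher in PC3 and 7 lower, with 5 not passing (HYOU1, ERN1, SSR1, SPCS2 and SEC23B). With TPM and limma it called 30 higher and 5 lower: SSR1, SPCS2 and SEC23B passed as higher (adjusted p = 0.00372, 0.0315 and 0.000262), and PDIA6 and ERO1B no longer passed as lower. Over all genes this test called 22.1% higher, 20.0% lower and 42.1% in either direction. Among the genes at least as abundant as the lowest member it called 39.8% higher and 29.1% lower. Lower in both lines were 14 members, against 6.90% of all genes. Lower in DU145 and higher in PC3 were 6 members (HSPA5, PDIA4, CALR, HERPUD1, SSR3 and SPCS3), against 6.59% of all genes. By the calls within each line none was higher in both, against 6.54% of all genes. The shares of these patterns among genes at least as abundant as the lowest member, which are called more often, were not computed. HERPUD1's PC3 call was lost in several settings, as given below.

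**Figure D1:**
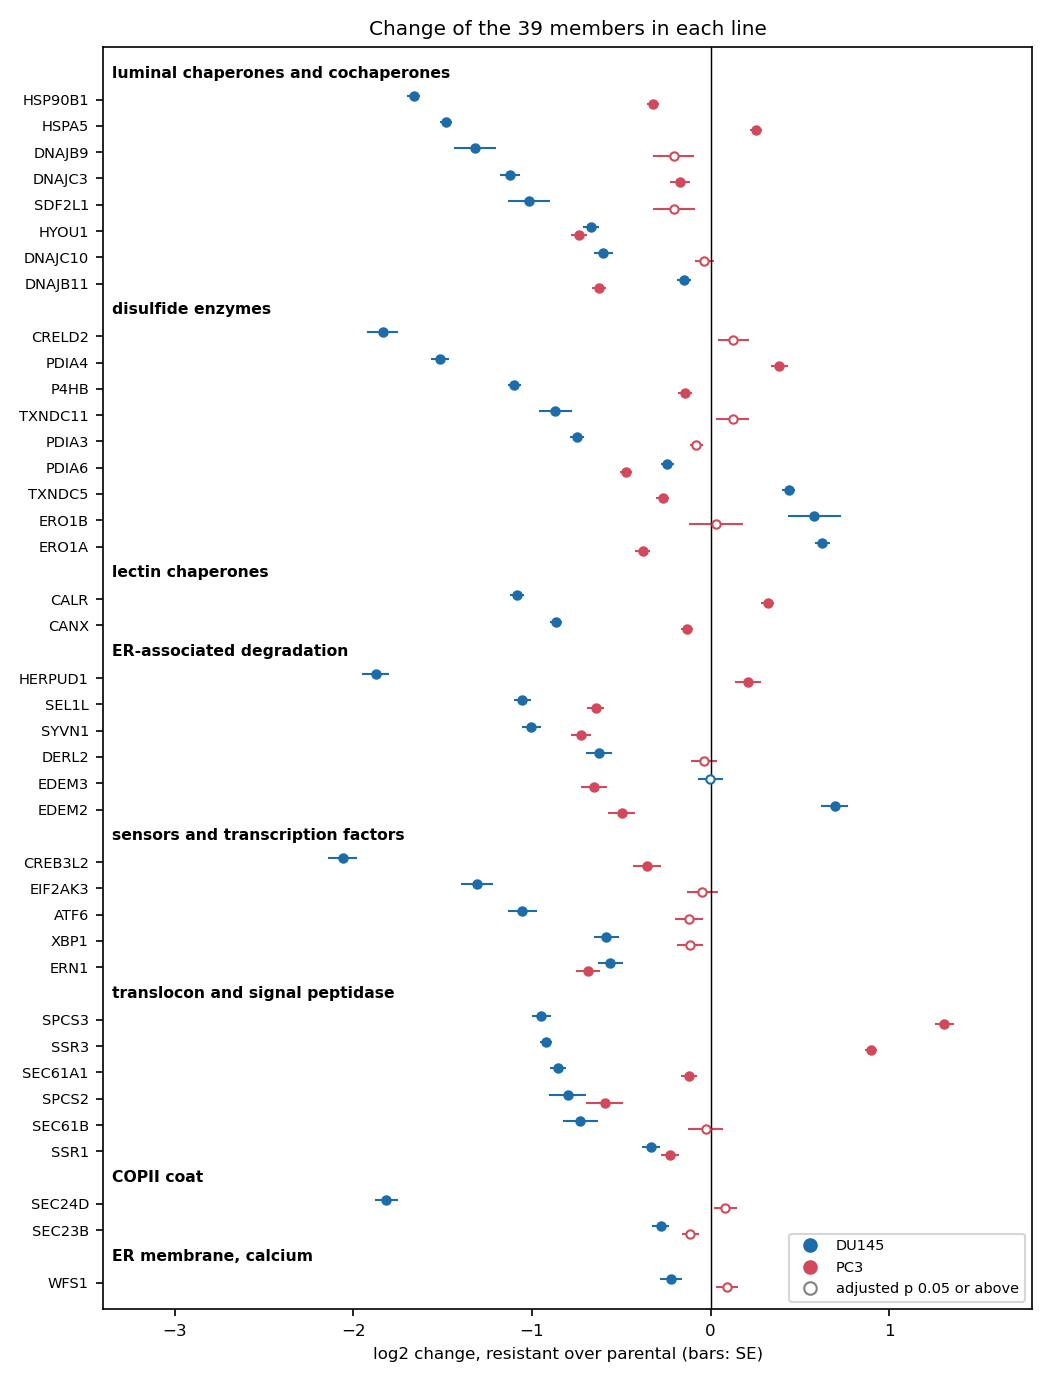
Change of each of the 39 members in the resistant over the parental line (log2, horizontal axis), in blue for DU145 and red for PC3, with bars for the SE and open points where the adjusted p was 0.05 or above; 3 libraries per group. The blue points lie left of 0 for 34 called members, while the red points lie on both sides of 0, from -0.74 for HYOU1 to 1.31 for SPCS3.

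The summed level of the 39 members shows the size of the shift. The sums were 15584, 15306 and 14755 counts per 1000000 counts (CPM, here scaled with edgeR's normalization factors) in the parental DU145 libraries and 7855, 7632 and 7800.5 CPM in the resistant ones. In PC3 they were 10260, 10841 and 10624 CPM in the parental libraries and 10283, 10190 and 10251 CPM in the resistant ones. Every resistant DU145 library thus lay below all others, and the PC3 groups overlapped. Summed luminal chaperones went from 5475 ± 170.5 CPM to 2162 ± 38.7 CPM in DU145 (mean ± SD, n = 3) and from 2962 ± 108 CPM to 2581 ± 18.2 CPM in PC3. For the translocon and signal peptidase genes the sum went from 1713 ± 67.4 to 1001 ± 10.1 CPM in DU145 and from 1196 ± 31.0 to 1470 ± 38.7 CPM in PC3. That PC3 rise does not describe the whole group, as abundant genes weigh most in a sum. SSR3 and SPCS3 rose there, SEC61A1, SSR1 and SPCS2 fell and SEC61B did not pass, with a median log2 change of -0.07. In bulk samples such as these, fewer cells expressing a gene and less RNA per cell cannot be told apart.

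The promoters of the members are shown because 11 of them carry an ERSE or its variant ERSE-II, the elements through which ATF6 and XBP1 are known to act. RefSeq windows on GRCh38.p14, from 250 bases before to 50 bases after the annotated start, were at hand for 37 members (PDIA3 and SEC24D had none in the table used). The ERSE searched is CCAAT and CCACG on 1 strand with any 9 bases between them, and ERSE-II is ATTGG and CCACG with any 1 base between them, on either strand. On the opposite strand they read CGTGG, 9 bases, ATTGG and CGTGG, 1 base, CCAAT. The lines below give the matches 5′ to 3′ on the strand of the gene, with the matched element in capitals, its spacer included.
HSPA5: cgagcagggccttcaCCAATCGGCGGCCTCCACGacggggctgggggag
HSP90B1: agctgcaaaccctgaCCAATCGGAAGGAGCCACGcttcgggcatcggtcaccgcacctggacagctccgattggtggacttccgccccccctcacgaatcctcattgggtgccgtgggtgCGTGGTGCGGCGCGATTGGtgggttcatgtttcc
CALR: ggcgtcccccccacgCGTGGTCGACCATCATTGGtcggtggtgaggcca
CANX: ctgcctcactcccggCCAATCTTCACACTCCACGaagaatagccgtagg
PDIA6: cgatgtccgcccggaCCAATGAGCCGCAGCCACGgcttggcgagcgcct
CRELD2: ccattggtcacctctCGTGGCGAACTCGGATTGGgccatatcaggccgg
ERO1B: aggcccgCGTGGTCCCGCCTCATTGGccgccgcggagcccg
XBP1: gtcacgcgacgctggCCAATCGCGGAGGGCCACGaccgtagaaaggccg
HYOU1: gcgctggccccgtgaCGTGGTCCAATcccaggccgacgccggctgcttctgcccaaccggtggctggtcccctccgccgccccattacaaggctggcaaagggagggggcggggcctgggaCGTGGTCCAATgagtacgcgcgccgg
SDF2L1: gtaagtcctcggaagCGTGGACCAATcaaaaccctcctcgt
HERPUD1: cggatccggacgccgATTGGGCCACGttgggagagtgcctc

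The HSPA5 stretch lies at chr9:125241376-125241424, minus strand, upstream of the start and before the first exon. On the plus strand, HSP90B1 is at chr12:103930201-103930354, CALR at chr19:12938369-12938417, CANX at chr5:179698763-179698811, HERPUD1 at chr16:56932010-56932050, SDF2L1 at chr22:21642099-21642139 and CRELD2 at chr22:49918539-49918587. On the minus strand, PDIA6 is at chr2:10812838-10812886, ERO1B at chr1:236282168-236282208, XBP1 at chr22:28800588-28800636 and HYOU1 at chr11:119057259-119057405. HSP90B1 held 2 ERSE matches and HYOU1 2 ERSE-II matches. CANX has several annotated starts, and the 1 stretch shown falls in 3 of its windows. The 250 bases before the HSPA5 start (chr9:125241344-125241593, minus strand) show where the ERSE lies in the promoter, with further CCAAT boxes upstream of it in lower case.
HSPA5 upstream: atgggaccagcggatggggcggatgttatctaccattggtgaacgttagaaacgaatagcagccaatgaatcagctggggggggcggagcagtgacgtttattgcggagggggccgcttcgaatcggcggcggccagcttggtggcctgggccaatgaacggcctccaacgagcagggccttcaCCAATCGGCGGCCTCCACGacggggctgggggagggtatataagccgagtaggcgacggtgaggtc

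An ERSE was found in 8 of the 37 members with a window (21.6%) and in 16 of 13315 tested genes with one (0.12%), so that 8 of those 16 genes are members. Counted over all windows of the same length, 27 of 35116 held it (0.077%). ERSE-II was found in 3 members and in 15 tested genes (0.113%), and in 0.054% of all windows. A single CCAAT was in 31 members and 42.3% of tested genes, and a single CCACG in 28 members and 54.1% of tested genes; both overlap the ERSE where that is present. The XBP1-type element UPRE (TGACG directly followed by TGG) was in 5 members (HYOU1, DNAJC10, TXNDC5, TXNDC11 and SSR3) and 1.13% of tested genes. The core of the element bound by ATF4 (TGATG and AA with any 1 base between them) was in 2 members and 3.06% of tested genes. A match is a description of the letters in the window and shows no binding, and the members were listed as genes of the unfolded protein response, a class in part defined through this element.

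Of the 11 members with an ERSE or ERSE-II, 10 fell in DU145 and ERO1B rose, with a median change of -1.02. Among the 26 members with a window and without an exact match, 22 fell, 3 rose and 1 did not pass, with a median of -0.83. Elements that differ from the searched letters, or lie outside the windows, count as absent here. In PC3 the 11 split into 4 that fell, 3 that rose and 4 that did not pass (median -0.12), and the 26 into 14, 3 and 9 (median -0.16). The ranges overlapped widely, from -1.88 to 0.58 with the element and from -2.06 to 0.69 without it in DU145. Outside the members, 20 tested genes carry the element, and 9 of them fell and 3 rose in DU145 while 7 fell and 9 rose in PC3. Of the 13258 other tested genes with a window and without the element, 27.7% fell and 24.1% rose in DU145, and 27.5% fell and 29.8% rose in PC3. The 4 of the 20 genes named here act in the ER or Golgi and were chosen after their values were seen. All 4 are among the 9 that fell in DU145, and none of the 3 that rose there is named. FICD, which attaches AMP to BiP, changed by -1.19 in DU145 and -1.03 in PC3. ALG12, a mannosyltransferase of the glycan precursor that shares exon bases with the member CRELD2, changed by -0.94 in DU145 and -0.51 in PC3. SERP1, a small translocon protein, changed by -0.74 in DU145 and 0.42 in PC3. NUCB1, a calcium-binding Golgi protein, changed by -0.51 in DU145, and its -0.08 in PC3 did not pass.

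**Figure D2:**
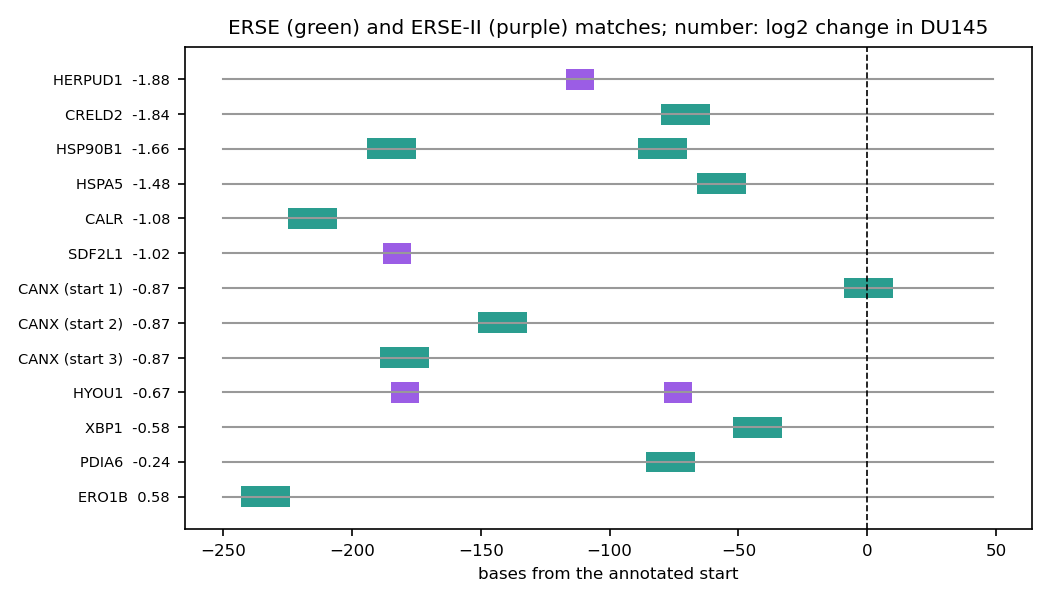
Position of ERSE (green) and ERSE-II (purple) matches along each 300-base promoter window, in bases from the annotated start (dashed line), for the 11 members that carry one, ordered by their log2 change in DU145, which stands beside each name. CANX is drawn once for each of 3 annotated starts; 10 of the 11 genes have a negative change and ERO1B, at the bottom, has 0.58.

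All 8 luminal chaperones and cochaperones fell in DU145. HSPA5 (BiP, the Hsp70 of the ER; ENSG00000044574, chr9:125234853-125241343) had 2223, 2225 and 2096 CPM in the parental DU145 libraries and 788, 766 and 788 CPM in the resistant ones. Every resistant library stood far below every parental one, a change of -1.48 ± 0.033 (log2 ± SE, 2.79-fold lower, edgeR adjusted p = 4.27e-14). In PC3 it had 672, 714 and 693 CPM in the parental libraries and 834, 832 and 815 CPM in the resistant ones. These did not overlap either, and the level rose by 0.25 ± 0.033 (edgeR adjusted p = 8.19e-06). The means of the resistant lines were 781 ± 12.7 CPM in DU145 and 827 ± 10.5 CPM in PC3. The test of the difference between the lines gave 1.74 (edgeR adjusted p = 2.18e-13).

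HSP90B1 (GRP94, the Hsp90 of the ER; ENSG00000166598, chr12:103930107-103947927) fell in both lines, to different extents. It had 2294, 2232 and 2153 CPM in the parental DU145 libraries and 726, 695 and 688 CPM in the resistant ones. The drop of 3.17-fold separated the groups completely (-1.66 ± 0.035, edgeR adjusted p = 2.19e-14). PC3 had 1439.7, 1545 and 1499.5 CPM in the parental libraries and 1212, 1187 and 1190.1 CPM in the resistant ones. The fall there was 1.25-fold (-0.32 ± 0.034, edgeR adjusted p = 1.05e-06), and the difference between the lines was 1.34 (edgeR adjusted p = 5.28e-12).

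HYOU1 (GRP170), which exchanges the nucleotide on BiP, fell in each line. The PC3 libraries held 347, 379.6 and 342 CPM in the parental and 212, 205 and 224 CPM in the resistant group, a change of -0.74 ± 0.045 with no overlap (edgeR adjusted p = 1.61e-09). In DU145 its mean went from 521 ± 9.88 to 327 ± 7.24 CPM (-0.67 ± 0.045). The difference between the lines, -0.07 ± 0.063, did not pass (edgeR adjusted p = 0.461), which does not show that the changes are alike.

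The J-domain cochaperones, which deliver clients to BiP, differed between the lines. DNAJB9 (ERdj4), which also holds IRE1 inactive, had 25.9, 27.6 and 22.5 CPM in the parental DU145 libraries and 9.66, 10.0 and 10.8 CPM in the resistant ones. It fell 2.50-fold without overlap (-1.32 ± 0.12, edgeR adjusted p = 1.75e-07), and its -0.21 in PC3 did not pass. DNAJC3 (p58IPK), which restrains PERK, had 126, 122 and 117 CPM in the parental DU145 libraries and 58.2, 56.0 and 53.3 CPM in the resistant ones, a fall of 2.18-fold (-1.12 ± 0.055). DNAJB11 (ERdj3) changed more in PC3. In PC3 it had 167, 173 and 161 CPM in the parental and 108, 108 and 109 CPM in the resistant libraries (-0.62 ± 0.040, edgeR adjusted p = 3.09e-09), while the change in DU145 was -0.15 and the difference between the lines -0.48 (edgeR adjusted p = 4.1e-06). SDF2L1, which acts in complex with DNAJB11, had 28.4, 31.7 and 28.1 CPM in the parental DU145 libraries and 14.1, 13.8 and 15.7 CPM in the resistant ones. These were separated and differed 2.02-fold (-1.02 ± 0.12). DNAJC10 (ERdj5), a reductase that opens disulfide bonds, fell in DU145 from 261 ± 13.1 to 172 ± 10.4 CPM, and its -0.03 in PC3 did not pass.

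Some of the smaller PC3 calls rest on single libraries. The fall of DNAJC3 in PC3 (-0.17, edgeR adjusted p = 0.0182) was lost without the third parental PC3 library (edgeR adjusted p = 0.078) or the first resistant one (0.0863). SDF2L1 did not pass in PC3 with all libraries (-0.21, edgeR adjusted p = 0.178) and passed without the first parental one (0.0261).

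**Figure D3:**
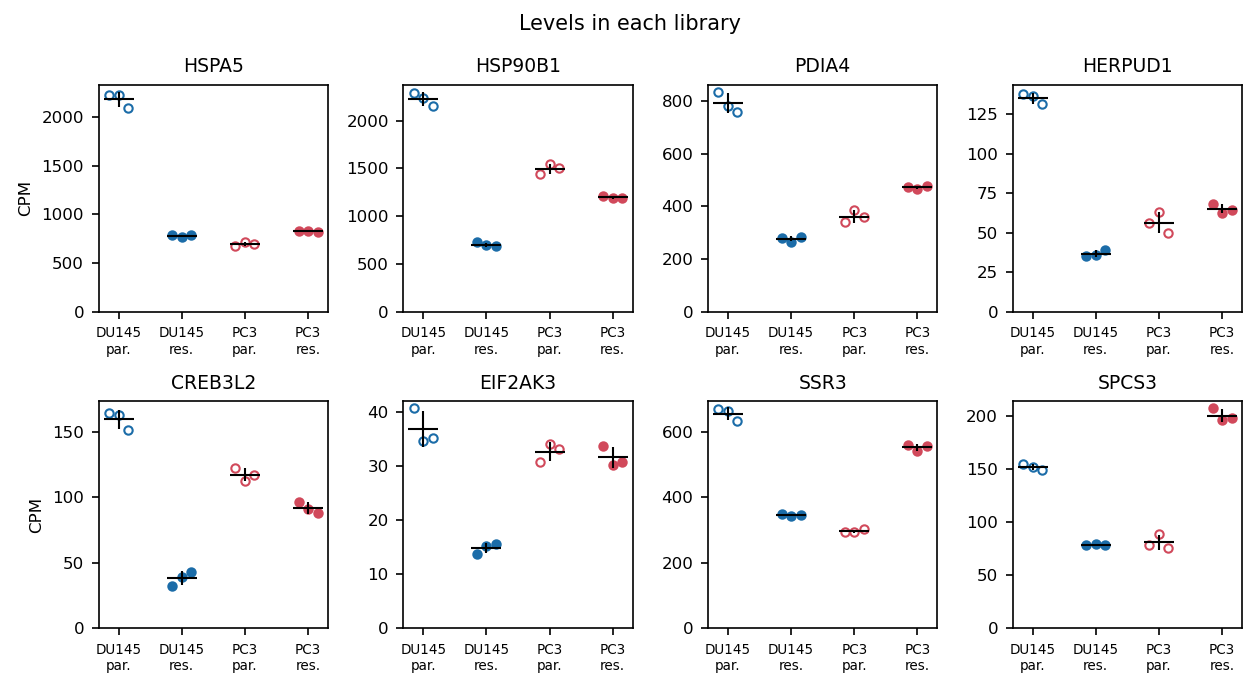
Level of 8 members in every library (CPM, vertical axis from 0), with open points for parental and filled points for resistant libraries, blue for DU145 and red for PC3; black marks give the mean and SD of 3 libraries. In DU145 the filled points lie below the open ones in all 8 panels, whereas in PC3 SPCS3, SSR3, PDIA4 and HSPA5 lie higher in the resistant libraries. The 8 members were picked by hand and include none of those that rose in DU145.

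Of the 9 disulfide enzymes, 6 fell and 3 rose in DU145. PDIA4 (ERp72), a protein disulfide isomerase, had 833, 782 and 759 CPM in the parental DU145 libraries and 279.9, 266 and 285 CPM in the resistant ones. The groups were far apart, with a 2.86-fold fall (-1.52 ± 0.048, edgeR adjusted p = 1.46e-12). The PC3 levels were 340.2, 386 and 358 CPM in the parental libraries and 473, 466 and 477 CPM in the resistant ones. It rose there 1.31-fold without overlap (0.39 ± 0.048, edgeR adjusted p = 5.12e-06), and the lines differed by 1.9 (edgeR adjusted p = 4.22e-12). CRELD2, an ER protein with EGF-like repeats that is known as a target of the response, had 73.1, 67.2 and 70.3 CPM in the parental DU145 libraries and 17.5, 22.2 and 19.3 CPM in the resistant ones. This was a 3.57-fold fall (-1.84 ± 0.088, edgeR adjusted p = 1.46e-10). PC3 had 29.2, 31.8 and 33.2 CPM in the parental and 33.5, 36.3 and 33.1 CPM in the resistant libraries, which overlapped, and the change of 0.13 did not pass (edgeR adjusted p = 0.259). The difference between the lines was 1.96 (edgeR adjusted p = 2.65e-09).

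P4HB, the founding protein disulfide isomerase, had 1376, 1384 and 1369 CPM in the parental DU145 libraries and 638, 612 and 677 CPM in the resistant ones. It fell 2.14-fold in DU145 (-1.10 ± 0.037, edgeR adjusted p = 3.14e-12) and by 0.14 (log2) in PC3. PDIA6 (P5), which is known to bind IRE1, changed more in PC3. Its PC3 libraries held 494, 527 and 524 CPM in the parental and 375, 370.1 and 368 CPM in the resistant group (-0.47 ± 0.035, edgeR adjusted p = 1.78e-08), and its DU145 change was -0.24. The difference between the lines (-0.23, edgeR adjusted p = 0.00134) no longer passed with TPM (limma adjusted p = 0.987). PDIA3 (ERp57), the partner of the lectin chaperones, fell in DU145 (-0.75), and its -0.08 in PC3 did not pass, although it passed on both FPKM scales (limma adjusted p = 0.021 and 0.0208 at a pseudocount of 1 and 0.1). TXNDC11 likewise fell in DU145 (-0.87) and did not pass in PC3 (0.12), although without the first resistant PC3 library it rose by 0.23 (edgeR adjusted p = 0.0423).

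The 3 disulfide enzymes that rose in DU145 are named after their values were seen. ERO1A, the oxidase that recharges protein disulfide isomerases, had 142, 129 and 137 CPM in the parental DU145 libraries and 206, 213 and 210.1 CPM in the resistant ones. It rose 1.54-fold (0.63 ± 0.043, edgeR adjusted p = 9.4e-09) and fell in PC3 (-0.38 ± 0.043, edgeR adjusted p = 1.84e-06), with no overlap in either line. Its paralogue ERO1B, at far lower counts, had 13.9, 11.8 and 12.8 CPM in the parental DU145 libraries and 20.1, 18.2 and 19.4 CPM in the resistant ones. It rose 1.5-fold in DU145 (0.58 ± 0.15), and its 0.03 in PC3 did not pass. TXNDC5 (ERp46) rose in DU145 from 344 ± 4.84 to 466 ± 14.3 CPM and fell in PC3 from 312 ± 4.28 to 259 ± 7.65 CPM. TXNDC5 shares 60.6% of its exon bases with the readthrough gene BLOC1S5-TXNDC5, so its count is uncertain where the counting could split reads between them. The difference between the lines for ERO1B (-0.55, edgeR adjusted p = 0.0475) was lost when any 1 of 9 libraries was left out, namely the second or the third parental DU145, any resistant DU145, the second or the third parental PC3, or the second or the third resistant PC3 library, with adjusted p up to 0.114.

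Both lectin chaperones, which retain glycoproteins until folded, fell in DU145. CALR (calreticulin) had 1098, 1113 and 1074 CPM in the parental DU145 libraries and 523, 489 and 539 CPM in the resistant ones. This 2.12-fold fall left no overlap (-1.08 ± 0.039, edgeR adjusted p = 5.66e-12). In PC3 CALR rose from 1281 ± 42.3 to 1598 ± 46.3 CPM (0.32 ± 0.038, edgeR adjusted p = 4.04e-06). CANX (calnexin, the membrane-bound lectin) fell from 1704 ± 50.4 to 936 ± 22.7 CPM in DU145 (-0.87 ± 0.034) and by 0.13 (log2) in PC3.

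ER-associated degradation, which returns misfolded protein to the cytosol for the proteasome, had 4 members that fell, 1 that rose and 1 that did not pass in DU145, and the same counts in PC3. HERPUD1, a membrane protein that organises the degradation complex (ENSG00000051108, chr16:56932142-56944864), had 138, 136 and 131 CPM in the parental DU145 libraries and 35.1, 36.2 and 39.1 CPM in the resistant ones. It fell 3.67-fold, with wide separation (-1.88 ± 0.075, edgeR adjusted p = 2.01e-11). For PC3 the values were 56.2, 63.1 and 49.9 CPM in the parental libraries and 68.3, 62.6 and 64.6 CPM in the resistant ones. These overlapped, and the rise of 0.21 ± 0.073 passed narrowly (edgeR adjusted p = 0.03). It was lost, with the adjusted p in parentheses, without the first (0.0744) or the third (0.168) parental library or the first (0.105) or the third (0.0515) resistant one, and in 4 of the other settings tried (adjusted p 0.053 to 0.0867). The difference between the lines was 2.08 (edgeR adjusted p = 2.27e-10).

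SEL1L and SYVN1 (HRD1) form the ubiquitin ligase of this pathway and fell in both lines. SEL1L had 296, 280.3 and 276 CPM in the parental DU145 libraries and 144, 136 and 131 CPM in the resistant ones. PC3 had 172, 174 and 182 CPM of SEL1L in the parental and 117, 108 and 113 CPM in the resistant libraries. No groups overlapped, and the changes were -1.05 ± 0.048 and -0.64 ± 0.048 (edgeR adjusted p = 8.43e-11 and 1.72e-08). SYVN1 had 101, 100.4 and 106 CPM in the parental PC3 libraries and 57.5, 63.3 and 64.8 CPM in the resistant ones (-0.72 ± 0.054, edgeR adjusted p = 1.74e-08). In DU145 it changed by -1.0 ± 0.055. SYVN1 shares exon bases with FAU and MRPL49, both of higher level, so its counts are uncertain.

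The mannose-trimming enzymes EDEM2 and EDEM3, which mark glycoproteins for degradation, did not follow the ligase in DU145. EDEM2 had 31.6, 31.5 and 34.4 CPM in the parental PC3 libraries and 24.5, 22.8 and 21.8 CPM in the resistant ones. It fell in PC3 (-0.50 ± 0.076, edgeR adjusted p = 4.54e-05) and rose in DU145, from 24.2 ± 0.818 to 39.2 ± 1.73 CPM (0.69 ± 0.075, edgeR adjusted p = 1.74e-06). EDEM3 had 42.6, 45.9 and 46.8 CPM in the parental PC3 libraries and 30.6, 27.8 and 27.6 CPM in the resistant ones, a separated fall of 1.57-fold (-0.65 ± 0.072, edgeR adjusted p = 1.51e-06). In DU145 its level was 68.8 ± 5.74 CPM in the parental and 68.7 ± 3.19 CPM in the resistant group, the 1 member that did not pass there. DERL2, a derlin of the retrotranslocation channel, fell in DU145 (-0.62), and its -0.04 in PC3 did not pass.

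The 5 sensors and transcription factors fell in DU145. ERN1 (IRE1, the kinase and RNase that splices XBP1; ENSG00000178607, chr17:64039142-64130819) had 32.8, 28.9 and 29.4 CPM in the parental DU145 libraries and 20.9, 19.2 and 21.6 CPM in the resistant ones. Levels in PC3 were 75.6, 72.6 and 75.0 CPM in the parental libraries and 44.5, 47.1 and 47.2 CPM in the resistant ones. Both falls were free of overlap (-0.56 ± 0.069 and -0.68 ± 0.068, edgeR adjusted p = 6.54e-06 and 4.35e-07). The difference between them, -0.12 ± 0.096, did not pass (edgeR adjusted p = 0.341), but it passed with limma on log2(FPKM + 1) at -0.21 and had the opposite sign, 0.03, with TPM.

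EIF2AK3 (PERK, the kinase that phosphorylates eIF2α; ENSG00000172071, chr2:88556741-88627464) had 40.7, 34.6 and 35.3 CPM in the parental DU145 libraries and 13.8, 15.3 and 15.6 CPM in the resistant ones. The resistant libraries were all below the parental ones by 2.48-fold (-1.31 ± 0.089, edgeR adjusted p = 8.42e-09). PC3 had 30.7, 34.1 and 33.2 CPM in the parental and 33.8, 30.3 and 30.8 CPM in the resistant libraries. These overlapped, and -0.05 did not pass (edgeR adjusted p = 0.722; the sign was the opposite, 0.03, with TPM). The lines differed by 1.26 (edgeR adjusted p = 4.92e-07).

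ATF6 (the sensor whose cleaved part binds ERSE; ENSG00000118217, chr1:161766320-161964070) had 91.6, 85.8 and 84.7 CPM in the parental DU145 libraries and 47.9, 37.3 and 41.0 CPM in the resistant ones. It fell 2.08-fold (-1.05 ± 0.080, edgeR adjusted p = 2.74e-08). PC3 had 95.3, 94.3 and 102 CPM in the parental and 96.0, 83.4 and 88.8 CPM in the resistant libraries. These overlapped, and the change of -0.12 did not pass (edgeR adjusted p = 0.249), while the difference between the lines was 0.94 (edgeR adjusted p = 4.04e-06).

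XBP1 (ENSG00000100219, chr22:28794555-28800597), whose spliced form drives secretory pathway genes, had 95.0, 102 and 97.9 CPM in the parental DU145 libraries and 68.1, 61.2 and 67.2 CPM in the resistant ones. It fell 1.5-fold without overlap (-0.58 ± 0.071, edgeR adjusted p = 5.68e-06). PC3 had 60.2, 67.9 and 65.6 CPM in the parental and 64.5, 60.8 and 53.5 CPM in the resistant libraries. These overlapped, and -0.12 did not pass (edgeR adjusted p = 0.215), with a difference between the lines of 0.47 (edgeR adjusted p = 0.00118).

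CREB3L2 (BBF2H7), an ATF6-like membrane-bound transcription factor known to drive COPII genes in cartilage, showed the largest change of any member in DU145. It had 164, 163 and 151 CPM in the parental DU145 libraries and 32.3, 39.3 and 43.1 CPM in the resistant ones. The fall was 4.17-fold (-2.06 ± 0.083, edgeR adjusted p = 2.81e-11). In PC3 it went from 117 ± 4.92 to 91.6 ± 4.5 CPM, a fall of 1.28-fold (-0.36 ± 0.080, edgeR adjusted p = 0.00167). The lines differed by 1.71 (edgeR adjusted p = 7.62e-09).

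The 6 translocon and signal peptidase members all fell in DU145, within a range of -0.95 to -0.33. SPCS3, a subunit of the signal peptidase, had 154, 152 and 149 CPM in the parental DU145 libraries and 77.8, 79.6 and 78.1 CPM in the resistant ones. In PC3 it had 78.5, 88.5 and 75.2 CPM in the parental libraries and 207, 196 and 197 CPM in the resistant ones. The groups were separated in both lines and in opposite directions, -0.95 ± 0.053 in DU145 and 1.31 ± 0.054 in PC3 (edgeR adjusted p = 9.41e-10 and 2.2e-11). The difference of 2.26 between the lines was the largest of any member (edgeR adjusted p = 2.09e-12). SSR3, a subunit of the translocon-associated protein complex, had the same pattern. In PC3 it had 293, 295 and 302 CPM in the parental and 559.8, 539 and 557 CPM in the resistant libraries (0.90 ± 0.034, edgeR adjusted p = 8.57e-12), and in DU145 it fell from 655 ± 19.8 to 345 ± 2.54 CPM.

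SPCS2, another signal peptidase subunit, had 75.4, 94.2 and 90.4 CPM in the parental PC3 libraries and 54.0, 53.7 and 64.7 CPM in the resistant ones. It fell there by 1.51-fold (-0.59 ± 0.10, edgeR adjusted p = 0.000303) and in DU145 by 1.74-fold, unlike SPCS3 in PC3. SPCS2 has a pseudogene copy, SPCS2P4, with up to 31.8 CPM, so its counts are uncertain, and PDIA3 has PDIA3P1 with up to 34.6 CPM. SSR1, of the same complex as SSR3, fell in both lines (-0.33 and -0.23). SEC61A1, the pore of the translocon, fell in DU145 (-0.85). Its small fall in PC3 (-0.12, edgeR adjusted p = 0.0333) was lost when any 1 of 7 libraries was left out, the second parental and the first or the third resistant DU145 libraries and all PC3 libraries except the first parental and the third resistant, with adjusted p from 0.0545 to 0.237. SEC61B, its tail-anchored subunit, fell in DU145 (-0.73) and did not pass in PC3 (-0.03).

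Both COPII members, which form the coat that carries cargo from the ER, fell in DU145 and did not pass in PC3. SEC24D, a cargo-binding subunit, had 119.6, 108 and 118 CPM in the parental DU145 libraries and 33.4, 31.5 and 33.1 CPM in the resistant ones. This was a 3.52-fold fall (-1.82 ± 0.066, edgeR adjusted p = 5.82e-12). PC3 had 76.1, 72.2 and 82.7 CPM in the parental and 87.2, 78.5 and 79.0 CPM in the resistant libraries, which overlapped (0.08, edgeR adjusted p = 0.326). The lines differed by 1.9 (edgeR adjusted p = 1.33e-10). SEC23B, which stimulates the coat's GTPase, changed by -0.28 in DU145 and -0.11 in PC3. Its PC3 value passed without the third parental PC3 library (edgeR adjusted p = 0.0428) and on both FPKM scales (limma adjusted p = 0.0106 and 0.0108), and its difference between the lines (0.17) passed without the second parental (0.0327) or second resistant (0.0137) PC3 library. WFS1 fell slightly in DU145 (-0.22, edgeR adjusted p = 0.00919), a call that was lost without the first parental DU145 library (0.0607), and did not pass in PC3 (0.09).

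The parental lines differed in this machinery, and the members' median ratio between the lines had the other sign in the resistant cultures. Not every member's ratio changed sign, and the resistant lines were not tested against each other. In the parental cultures 26 members were lower in PC3 than in DU145, 9 were higher and 4 did not pass (edgeR's quasi-likelihood test), where 29.5% of all genes were lower and 60.3% differed in either direction. Among the genes at least as abundant as the lowest member, 42.25% were lower and 41.3% higher. HSPA5 was 1.65 lower on the log2 scale in parental PC3, and HERPUD1 1.26 lower, while ERN1 was 1.29 higher. The median log2 ratio of PC3 to DU145 over the members was -0.55 between the parental lines and 0.35 between the resistant ones. Over the 10654 genes of at least the lowest member's level and above 0 in every group, the medians were -0.01 and 0.07. By group means 28 of the 39 members were lower in PC3 before selection and 15 after it, and 19 members were closer together after it. Of those 10654 genes, 5380 were lower in PC3 before selection and 4997 after it, and 5756 were closer together after it. The median size of the members' log2 ratio, whatever its sign, was 0.61 before and 0.62 after. With TPM and limma 29 were lower and 6 higher in parental PC3: CALR, SEC61A1 and SEC23B no longer passed as higher, and PDIA3, PDIA6 and EIF2AK3 passed as lower. On both FPKM scales PDIA3 passed as lower too (limma adjusted p = 0.043 and 0.0421). Single libraries decided 3 of these parental calls: SDF2L1 was lost without the first parental PC3 library (edgeR adjusted p = 0.0766), SEC23B without the second (0.0577), and EIF2AK3 passed without the second parental DU145 library (0.0475). The parental libraries also serve in each line's own comparison, so these are not independent of the changes above.

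**Figure D4:**
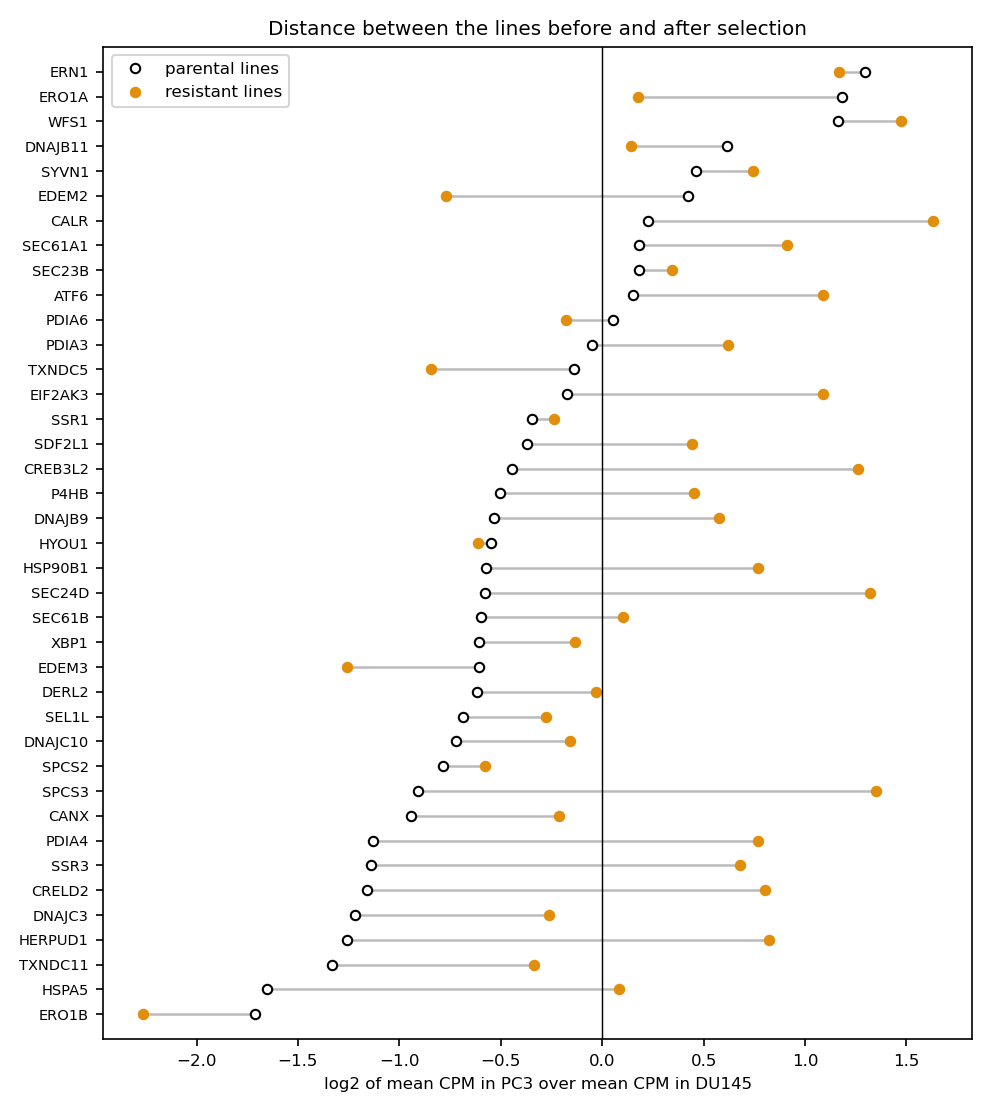
Log2 ratio of the mean CPM in PC3 to that in DU145 for each member, between the parental lines (open points) and between the resistant lines (filled points), ordered by the parental ratio; means of 3 libraries. Open points lie left of 0 for 28 members and filled points for 15, and the median moved from -0.55 to 0.35.

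Per length, luminal proteins had the highest levels and 2 of the sensors were among the lowest. By FPKM (a level scaled by gene length and library size), CALR was the most abundant member in every group, with 401 ± 5.30, 186 ± 8.82, 455 ± 14.3 and 552 ± 19.1 FPKM in parental DU145, resistant DU145, parental PC3 and resistant PC3. HSPA5 was next in DU145, with 343 ± 8.08 FPKM in the parental and 121 ± 1.60 FPKM in the resistant line. In parental PC3 HSPA5 (106 ± 2.97 FPKM) stood lower in the order, and PDIA4 (109 ± 6.80 FPKM) just above it did not differ from it beyond the spread. At the other end were EIF2AK3 (1.83 ± 0.15 FPKM in parental DU145), ERN1 (1.63 ± 0.0989 FPKM) and ERO1B (0.859 ± 0.0654 FPKM). TXNDC5, which rose in DU145, moved up the order there from 81.0 ± 1.04 FPKM to 108 ± 2.70 FPKM in the resistant line, where CALR and HSPA5 alone lay above it.

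Other genes of the ER, listed by function, fell more often than they rose in DU145 and rose more often than they fell in PC3. Of 76 such genes 45 fell, 18 rose and 13 did not pass in DU145 (median -0.27), and 15 fell, 36 rose and 25 did not pass in PC3 (median 0.15). Over all genes tested 20.7% fell and 18.9% rose in DU145, and 21.6% fell and 22.4% rose in PC3. Among the genes at least as abundant as the lowest member, 36.4% fell and 29.8% rose in DU145, and 31.5% fell and 39.6% rose in PC3. The latter shares lean the same way as the ER genes. Both are the background of each list counted below, and no list was tested as a set. The oligosaccharyltransferase, which attaches glycans, had 7 of 10 genes lower and 1 higher in DU145, and 6 higher and 1 lower in PC3. Its subunit MAGT1 went from 148 ± 12 to 67.5 ± 1.71 CPM in DU145 and its catalytic subunit STT3B from 488 ± 15.1 to 232 ± 4.97 CPM. In PC3 TUSC3, the paralogue of MAGT1, rose from 25.4 ± 1.9 to 83.9 ± 4.45 CPM and DDOST from 256 ± 14.7 to 353 ± 6.24 CPM. MAGT1 and STT3B rose in PC3 as well, by 0.27 and 0.31 (log2).

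Among 13 other translocation genes, 8 fell and 3 rose in DU145, and 1 fell and 6 rose in PC3. TRAM1, a translocating chain protein, went from 552 ± 34.7 to 271 ± 11.0 CPM in DU145, whereas SEC63, which brings BiP to the translocon, rose from 45.4 ± 2.96 to 97.0 ± 6.01 CPM there and by 0.40 in PC3. SRPRB, of the signal recognition particle receptor, rose in PC3 by 0.80 (log2). Of 18 other folding genes 11 fell and 4 rose in DU145, and 4 fell and 10 rose in PC3. The prolyl isomerase FKBP2 changed by -1.21 and the thioredoxin-like TMX3 by -0.97 in DU145, while TXNDC12 and ERP44, of the same fold, changed by 0.73 and 0.54 in PC3.

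Other genes of ER-associated degradation counted 7 lower and 4 higher of 14 in DU145, and 3 lower and 6 higher in PC3. EDEM1, the paralogue of EDEM2 and EDEM3, fell in both lines, from 141 ± 5.32 to 78.6 ± 3.31 CPM in DU145 and from 247 ± 10.1 to 98.6 ± 1.54 CPM in PC3. VCP, the ATPase that extracts the substrates, rose by 0.64 in PC3. DERL3 was at low levels, with 1.3 ± 0.204 CPM in parental and 0.112 ± 0.058 CPM in resistant DU145. Of 10 other COPII genes 6 fell and 3 rose in DU145, and 3 fell and 3 rose in PC3. The outer coat genes SEC31A and SEC13 changed by -0.90 and -0.86 in DU145, and SEC23A and PREB by -0.53 and -0.42 in PC3.

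Of 11 other regulators of the response, 6 fell and 3 rose in DU145, and 3 fell and 5 rose in PC3. CREB3L1 (OASIS), a relative of CREB3L2, went from 24.0 ± 3.32 to 0.603 ± 0.147 CPM in PC3 and from 1.94 ± 1.19 to 0.494 ± 0.308 CPM in DU145. CREB3L4 changed by -0.94 in PC3, and CDNF, a secreted ER protein, by 2.02 in DU145 at a level of at most 1.64 CPM on average.

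The transcription factor ATF4, through which PERK can act, and genes linked to it, 10 in all, counted 6 lower and 2 higher in DU145. In PC3 they counted 2 lower and 6 higher. ATF4 itself is 1 of the 2 higher in DU145 (0.17). ATF3, a stress-induced transcription factor, had 16.9 ± 1.27 CPM in parental and 5.28 ± 0.229 CPM in resistant DU145, and rose in PC3 from 1.5 ± 0.0976 to 9.99 ± 1.31 CPM. DDIT3 (CHOP) fell in DU145 from 33.5 ± 3.51 to 10.9 ± 1.75 CPM, and its 0.06 in PC3 did not pass. PPP1R15A (GADD34), which reverses the phosphorylation of eIF2α, rose in PC3 from 40.0 ± 2.01 to 105 ± 9.49 CPM, and its -0.08 in DU145 did not pass.

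Chaperones of the cytosol and mitochondria, which serve other compartments, rose at least as often as they fell in each line. Of 15, 5 fell and 7 rose in DU145, and 1 fell and 13 rose in PC3. HSPH1 (HSP105) rose in both lines, from 19.9 ± 4.17 to 124 ± 4.2 CPM in DU145 and from 128 ± 3.23 to 355 ± 20.9 CPM in PC3. The small heat shock protein HSPB1 changed by -1.60 in DU145, and the cochaperone BAG3 fell in PC3 from 312 ± 7.92 to 135 ± 1.13 CPM.

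**Figure D5:**
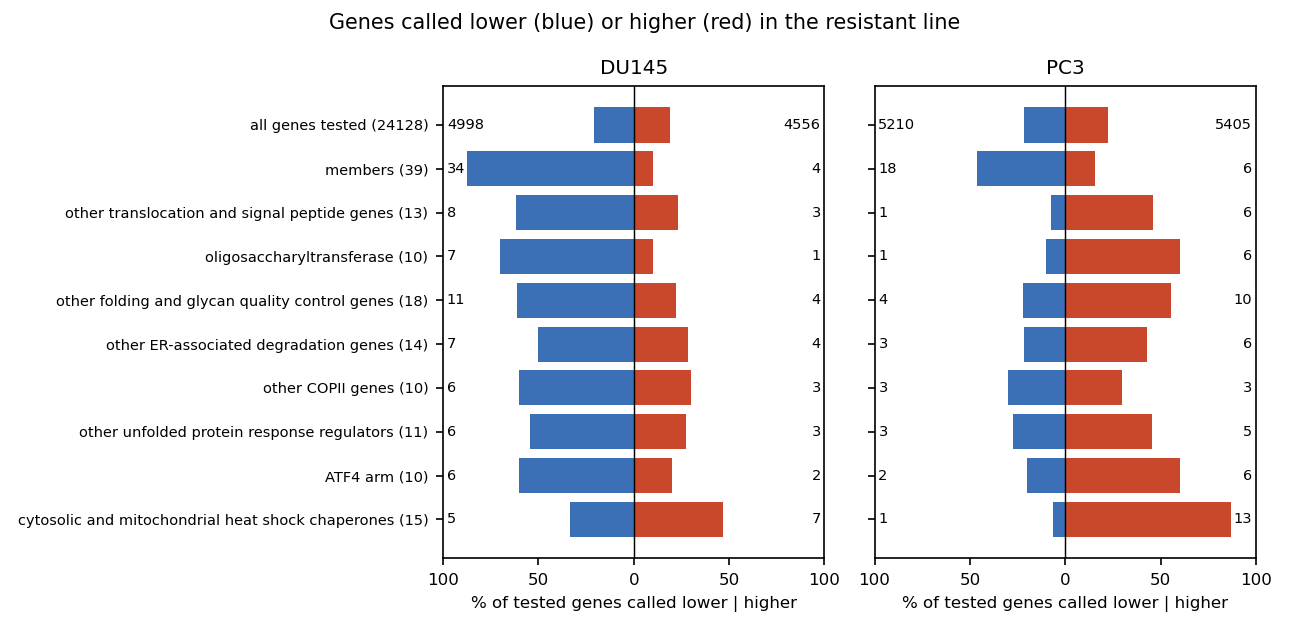
Share of the genes in each list called lower (blue, to the left) or higher (red, to the right) in the resistant line, in % of the tested genes (number in parentheses), for DU145 and PC3; the numbers at the edges count the genes. In DU145 the members have 34 lower and 4 higher, and in PC3 each list other than the members and the COPII genes has more genes higher than lower.

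Several features of the libraries moved with the groups. The libraries held 62513103 to 72530254 counts each. Mitochondrially encoded genes took 4.11% ± 0.17 of the counts in parental and 7.08% ± 0.053 in resistant DU145, and 5.82% ± 0.20 in parental and 3.50% ± 0.043 in resistant PC3. Without these genes 34 members still fell and 4 rose in DU145, and 17 fell and 6 rose in PC3. Summed epithelial keratins, EPCAM and CDH1 were 256 to 261 FPKM in parental and 393 to 397 FPKM in resistant DU145, and 346 to 351 and 195 to 209 FPKM in PC3. Leukocyte markers summed to at most 0.638 FPKM in any library, with PTPRC at 0 in all DU145 and CD3E at 0 in all PC3 libraries. Fibroblast collagens and receptors summed to 2.43 to 4.40 and 0.61 to 1.25 FPKM in parental and resistant DU145, and to 12.8 to 13.7 and 1.29 to 2.07 FPKM in PC3. The endothelial list was carried by KDR and PECAM1 in PC3 (27.2 to 35.7 FPKM in parental, 7.57 to 10.9 in resistant libraries) and summed to at most 0.133 FPKM in DU145. CTNNA1, which PC3 is known to lack, had at most 0.388 FPKM in PC3 and 42.7 to 60.8 FPKM in DU145. The part of these shifts in the results was not tested. The strand used in counting is not given in the sources used here, and 20 members share exon bases with another gene; where that gene had more reads (DNAJB9 with PNPLA8 and THAP5, SYVN1) or a similar number (DERL2 with MIS12, CRELD2 with ALG12), the counts are uncertain.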

How the data were processed

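RNA-seq of 12 libraries (4 groups of 3) was analysed. For every library the authors deposited a table of 38611 Ensembl genes, each with its raw count and its FPKM, per the file headers. Tools listed in the submitters' processing notes, with no order or role, are HISAT2 2.0.4, cutadapt 1.9, edgeR, DESeq2 and StringTie 1.3.4d. The notes list hg18 as the build, but the deposited positions are GRCh38 positions: of 37385 genes found in GENCODE 29, 37345 overlapped their place there. How reads were counted, with which annotation release and strand setting, is not given in the sources used here.

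The deposited counts were fitted with edgeR 4.0.16 (R 4.3.3; filterByExpr, TMM, quasi-likelihood, 8 residual degrees of freedom) on all 12 libraries. P-values, two-sided, were adjusted by Benjamini-Hochberg over 24128 genes, with a threshold of 0.05, and the script was tested on simulated data. CPM values use TMM-scaled library totals; the raw totals were 62513103 to 72530254 counts. All 39 members were tested, with a lowest count of 239 in a library (ERO1B). Alternatives were DESeq2 1.42.0, its size factors, no filter, limma 3.58.1 on log2(FPKM + 1), log2(FPKM + 0.1) and log2(TPM + 1), where TPM was computed from the deposited FPKM, no mitochondrial genes, each line alone, a replicate block and each library left out.

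Values in every library are given for HSPA5, HSP90B1, XBP1, ATF6, ERN1, EIF2AK3 and HERPUD1, for the 10 other called members of largest change in each line, and for the 5 of largest difference between the lines; in each other list the 2 called genes of largest change per line are named. The members and lists were chosen with earlier results of these data known. Promoters are RefSeq's, on GRCh38.p14; protein sequences were not used here.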

Additional observations from a re-analysis of the deposited data

Results flagged for a closer look

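For 10 genes among those described in every library or with the largest differences between the lines, the change under selection differed between PC3 and DU145 by edgeR's quasi-likelihood test of the difference itself (PC3 change minus DU145 change, log2). SPCS3, CRELD2, PDIA4 and SEC24D were taken for their large called differences, so their passing was fixed by the choice. ERN1, HYOU1 and SPCS2, also described by library, did not pass (-0.12, -0.07 and 0.21, edgeR adjusted p = 0.341, 0.461 and 0.286). Over all 39 members this test called 27 higher in PC3 and 7 lower. None of those 7, which include EDEM2 (-1.19) and ERO1A (-1.01), is among the 10. The chaperones HSPA5 and HSP90B1 differed by 1.74 and 1.34. SPCS3 of the signal peptidase differed by 2.26 and the degradation gene HERPUD1 by 2.08. The disulfide enzymes CRELD2 and PDIA4 differed by 1.96 and 1.9, and the COPII gene SEC24D by 1.9. Among the sensors and transcription factors, EIF2AK3 differed by 1.26, ATF6 by 0.94 and XBP1 by 0.47. In all 10 the PC3 value was the higher; HSPA5, PDIA4 and SPCS3 fell in DU145 and rose in PC3, HERPUD1 did so too with a PC3 call that several settings lost, and HSP90B1 fell in both.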

How the results depend on the processing

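The counts of members called stayed within 1.5 times of the reported ones under every alternative run: 37 to 38 in DU145, 21 to 25 in PC3, 33 to 35 for the difference between the lines and 34 to 36 between the parental lines. The median change of the members in DU145 was -0.81 with limma on log2(FPKM + 1), -0.88 on log2(FPKM + 0.1) and -1.0 on log2(TPM + 1), and -0.88 to -0.84 when 1 library was left out. In PC3 it was -0.14 without a filter on low counts, -0.16 on either FPKM scale and -0.039 with TPM, and -0.16 to -0.10 when 1 library was left out. Over the 39 members, 4 comparisons and all alternatives, 3111 of 3198 values kept their direction and side of the threshold, 42 lost the call, 19 gained it and 26 turned sign. TPM gave 9 of the lost calls, 6 of the gained and 8 of the turned signs, and leaving out 1 library gave 25, 6 and 12. Of 672 values of the named genes of other lists, 1 lost the call: CREB3L1 in DU145 under the replicate block (-1.88, edgeR adjusted p = 0.0867).

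No value that turned sign had passed. With TPM these were, in PC3, DERL2 (0.0424), DNAJC10 (0.0466), EIF2AK3 (0.0291), PDIA3 (0.0027) and SEC61B (0.0557), in the difference between the lines HYOU1 (0.165) and ERN1 (0.0309), and between the parental lines PDIA6 (-0.0811), which then passed as lower (limma adjusted p = 0.0313). EDEM3 in DU145 turned to 0.003 with DESeq2's size factors, 0.0029 with DESeq2, 0.0099 without mitochondrial genes and 0.0092 with DU145 alone. ERO1B in PC3 turned to -0.0026 on log2(FPKM + 1) and -0.0127 on log2(FPKM + 0.1). With 1 library left out, EDEM3 in DU145 ran from -0.0542 to 0.0609, and in PC3 DERL2 from -0.0902 to 0.023, DNAJC10 from -0.0621 to 0.0153, ERO1B from -0.1144 to 0.143 and SEC61B from -0.1102 to 0.0475. The cause was not tested.

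The replicate block called 38 members in DU145, 24 in PC3, 33 for the difference between the lines and 35 between the parental lines; among members it changed 1 call, losing ERO1B's difference between the lines (-0.56, edgeR adjusted p = 0.0728). Libraries with the same number did not deviate together (correlations from -0.111 to 0.025 over 12202 genes, and up to 0.156 with another number). The numbers were taken as sample names only, though with 3 libraries per group this cannot exclude a shared batch. The lowest count of a member in any library was 239.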
